A study of Homo sapiens with 10 samples.

Results

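The solute carriers (SLC) described here were the 245 genes whose probe sets carried a single symbol that began with SLC and a number, out of 12082 genes in the array table. They were measured by 361 probe sets in 52 SLC families, and for a gene with several probe sets the one that was brightest on average over the 10 arrays was used. The arrays held total RNA of MDA-MB-231, a human basal-like breast cancer line, stably transfected with pEGFP1-Oct3/4, in which the Oct4A promoter drives green fluorescent protein (GFP), and selected with neomycin. Breast cancer cells (BCCs) were sorted by GFP intensity into Oct4hi (the brightest 5%, 4 arrays), Oct4low (the dimmest 5% per the labels, 4 arrays) and Oct4med BCCs (cells between both extremes, 2 arrays). The study asked how BCCs with different Oct4A activity differ in gene expression. All 3 subsets came from this one transfected line, and the sort read the activity of the reporter and not the Oct4 protein. Whether the transfectants were 1 clone or a pool was not given in the sources used here.

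SLC proteins sit in the plasma membrane or in membranes of organelles and move small solutes across them, as uniporters, as exchangers or coupled to sodium, protons or other ions. The families are named by relatedness and mostly share a kind of substrate, such as amino acids (SLC1, SLC7 and SLC38), glucose (SLC2), zinc (SLC30 and SLC39), organic ions (SLC22) or the metabolites that cross the inner mitochondrial membrane (SLC25). Many tumor cells depend on the uptake of glutamine, cystine, arginine and glucose through these carriers.

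The values were log2 intensities between 2.37 and 14.46, with array medians between 5.05 and 5.14. Of the markers listed for MDA-MB-231, CD44, CAV1 and ANXA1 had Oct4low means of 11.22, 12.40 and 12.85, whereas the probe sets of VIM and MSN lay at 3.96 and 4.92, below the array medians. The authors had left out probe sets with little change, so brighter sets of such genes may be missing from the values. Of the 6 tested, 4 were lower in Oct4hi than in Oct4low BCCs (ANXA1, SPARC, CD44 and CAV1, differences of -0.65 to -0.35) and 2 higher (ZEB1 and S100A4, by 0.41 and 0.26), with a median of -0.35. Of the luminal breast list, CDH1 was at 4.01 and PGR at 3.29, while GATA3 and MLPH were at 7.63 and 9.24. The mean level of the 10 luminal genes per array was 6.39 to 6.48 in Oct4low, 6.22 to 6.29 in Oct4med and 6.17 to 6.24 in Oct4hi BCCs, with GATA3 and MLPH lower in Oct4hi than in Oct4low BCCs by 0.76 and 0.87 (differences of -0.76 and -0.87). The mean of 7 leukocyte genes was 4.30 to 4.49, 4.36 to 4.49 and 4.41 to 4.6, with the defining gene PTPRC at 3.19, and that of 9 stromal genes 5.00 to 5.10, 4.99 to 5.06 and 5.05 to 5.16. For 5 erythroid genes it was 6.16 to 6.29, 6.35 to 6.46 and 6.34 to 6.48. Of the 4 tested, 1 was called, HBE1, which exceeded Oct4low BCCs by 0.73 in Oct4hi and 0.68 in Oct4med BCCs (adjusted p = 4.57e-05 and 0.00049). The part of these lists in the SLC results was not tested. A 28S ribosomal RNA control probe set averaged 12.70 in Oct4med BCCs and 13.60 and 13.57 in Oct4low and Oct4hi BCCs, and a second one 11.50 against 11.98 and 11.87. Of the other two ribosomal controls, the 18S set averaged 12.84, 12.98 and 13.14 and the remaining 28S set 5.30, 5.27 and 5.21 in the order Oct4low, Oct4med and Oct4hi, without that drop. The part of these controls in the Oct4med results below was not tested. In sorted bulk cells, fewer cells that express a gene and less of its RNA per cell cannot be told apart.

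Of the 245 SLC genes, 152 were at or above the array median in at least 2 arrays and were tested. Of these, 121 were at or above it in all 10 arrays and 31 in 2 to 9 arrays, so that a low level in 1 subset could have kept a gene just inside or just outside. The other 93 were not tested, and 91 of those were below the median in every array, among them SLC7A3, SLC2A4, SLC22A9 and SLC30A8. As probe sets with little change had been left out by the authors, a low level here does not show that a gene was silent. The spread between arrays of a subset was small, with a median SD over the tested SLC genes of 0.11 for Oct4low and 0.12 for both other subsets.

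Between Oct4low and Oct4hi BCCs, 22 SLC genes rose and 23 fell (limma, adjusted p under 0.05), which is 14.5% and 15.1% of those tested. Among all 7644 tested genes, 20.4% were higher and 14.7% lower. The differences of the SLC genes ranged from -0.53 to 0.64 on the log2 scale, with a median of 0.02, which equals the median over all genes. No SLC gene was both called and changed over 2-fold, compared with 0.85% of all genes. For 37 of the 45 called genes the Oct4hi and Oct4low arrays did not overlap, and the same held for 89.9% of all called genes. When every array was shifted to a common median, 23 SLC genes were higher and 16 lower. The lower count was 15 without Oct4low replicate 2 and 14 without Oct4hi replicate 2. Of the 45 calls, 26 held whichever array was left out.

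Oct4med BCCs differed from Oct4low BCCs in fewer SLC genes, 8 higher and 10 lower, or 5.26% and 6.58%, none of them with overlapping arrays (99.5% of all called genes had none). The background was 5.68% and 11.7% of all genes. The range was -1.21 to 0.54 and the median 0.08, against 0.03 over all genes. By the brightest probe sets, SLC26A6 was the 1 SLC gene called and over 2-fold lower, compared with 1.41% of all genes called and over 2-fold. It was below the array medians in both Oct4med arrays and entered the test through both other subsets, where it was higher. With the values quantile normalized again, the counts were 17 higher and 5 lower, so that the larger direction turned. The higher count was 5 without Oct4low replicate 1, without Oct4low replicate 3 or without Oct4hi replicate 2. The lower count was 4 without Oct4low replicate 2 or 3, 3 without Oct4med replicate 1 and 6 without Oct4med replicate 2. Of the 18 calls, only those of SLC26A6 and SLC25A25 held whichever array was left out.

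Oct4hi relative to Oct4med BCCs showed 17 SLC genes higher and 21 lower, or 11.2% and 13.8%, against 18.2% and 9.62% of all genes. None of the 38 had overlapping arrays, nor had 99.5% of all called genes. The median SLC difference was -0.10 and that of all genes -0.01, and no SLC gene was called and over 2-fold (1.15% of all genes were). Quantile normalization gave 10 higher and 29 lower, and a common median gave 17 higher and 10 lower, so the split between the directions depends on the scaling. Without Oct4med replicate 1 the counts were 7 and 2, without Oct4hi replicate 1 the lower count was 13, and without Oct4hi replicate 2 it was 12. Of the 38 calls, 7 held whichever array was left out, namely those of SLC22A15, SLC22A5, SLC25A25, SLC26A6, SLC2A3, SLC30A1 and SLC35A2. Across the 3 subsets, 56 SLC genes (36.8%) differed by limma's F-test, and 43.8% of all genes did. The 3 comparisons share arrays, so that a gene's differences are set side by side and not counted as separate evidence.

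**Figure D1:**
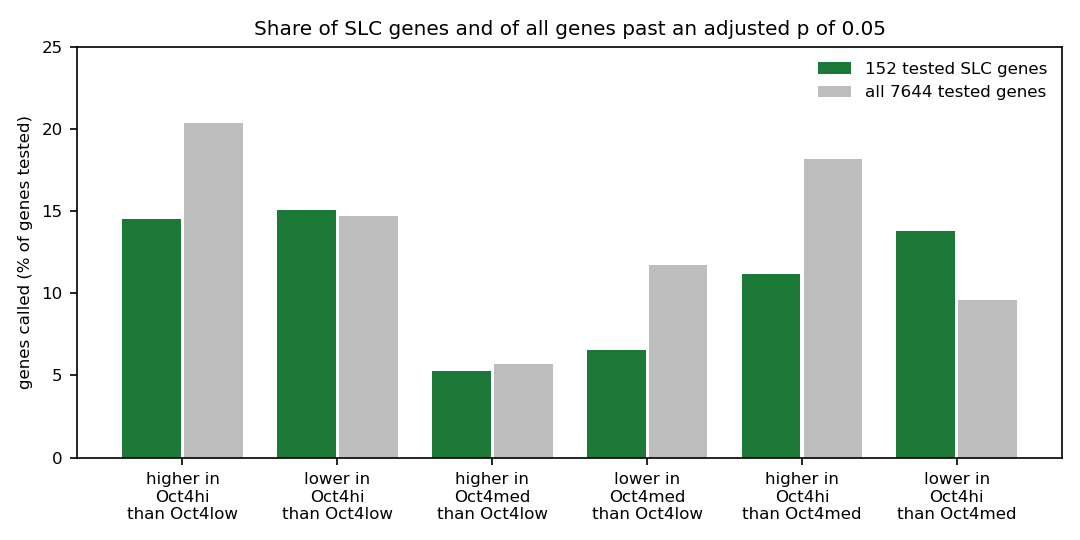
The bars give the percentage of tested genes past an adjusted p of 0.05 (vertical axis) for each comparison and direction (horizontal axis), in green for the 152 SLC genes and in grey for all 7644 genes. For genes higher in Oct4hi than in Oct4low BCCs the SLC bar stands at 14.5% and the grey bar at 20.4%.

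In all, 69 SLC genes were called in at least 1 comparison, 83 in none and 3 in all of them (SLC2A3, SLC22A5 and SLC26A6). The heat map of the called genes shows rises and falls side by side within the classes of transporter. The exception was the class of 3 genes named other, where 2 were lower and none higher in Oct4hi than in Oct4low BCCs. SLC25A25 and SLC26A1, for example, were called against Oct4low in Oct4med but not in Oct4hi BCCs, with a called difference between Oct4hi and Oct4med as well.

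**Figure D2:**
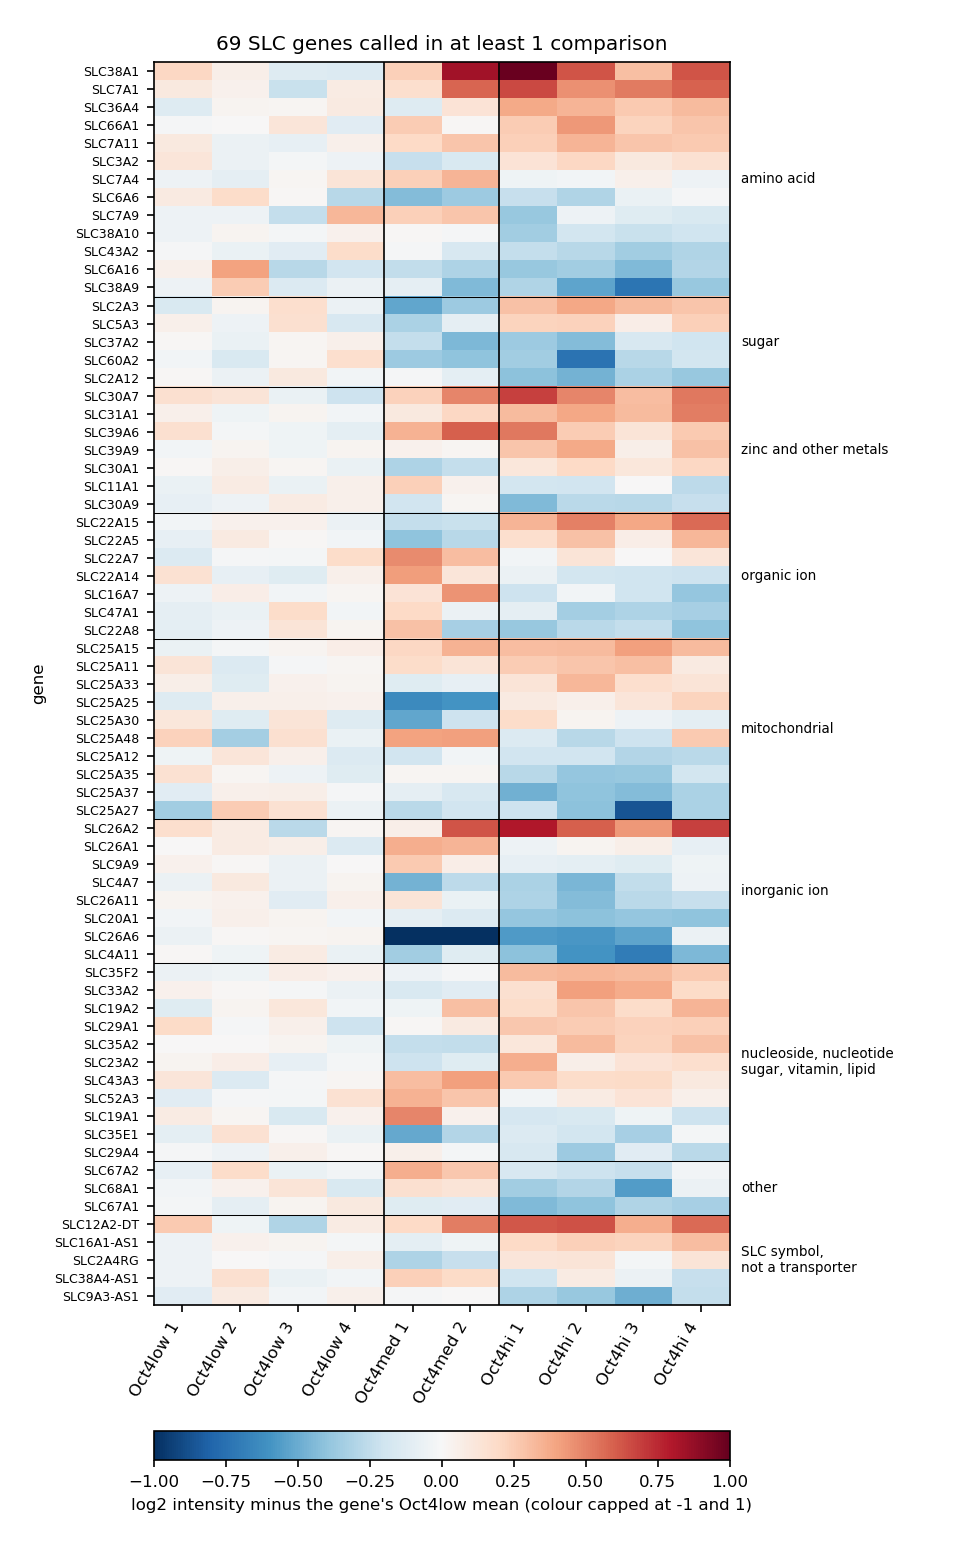
Each row is 1 of the 69 called SLC genes and each column 1 array, with the colour giving the log2 intensity minus the gene's mean over the 4 Oct4low arrays (red higher, blue lower, capped at -1 and 1). SLC38A1, SLC7A1 and SLC26A2 are red in the Oct4hi arrays, and SLC26A6 and SLC25A25 are darkest blue in the 2 Oct4med arrays.

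**Figure D3:**
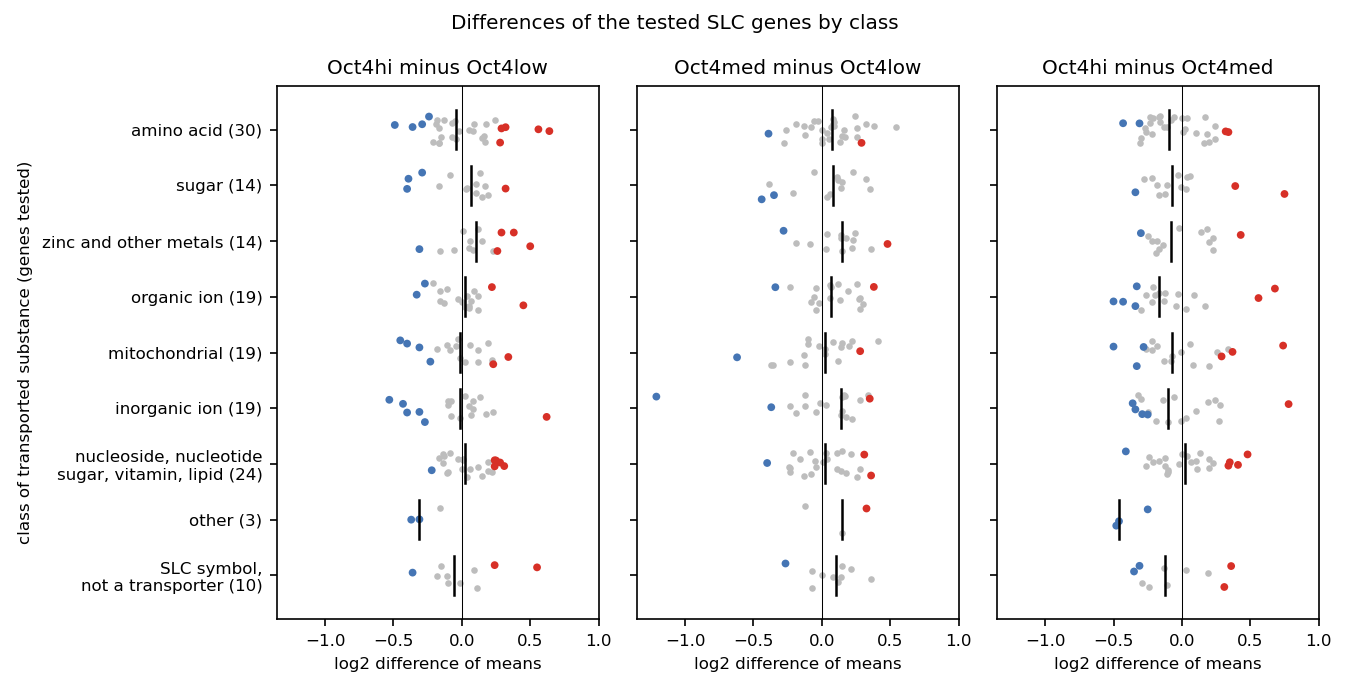
Each point is 1 tested SLC gene placed by its log2 difference (horizontal axis) in its substrate class (vertical axis, number tested in brackets), with called genes in red (higher) or blue (lower), other genes in grey and a black line at the class median. Class medians of Oct4hi minus Oct4low lie between -0.06 and 0.10, apart from -0.31 in the class of 3 genes named other.

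Amino acid and peptide carriers made up 43 of the genes, of which 30 were tested. In Oct4hi relative to Oct4low BCCs, 5 were higher (16.7%, against 20.4% of all genes) and 4 lower (13.3%, against 14.7%), with a class median of -0.04, and with a common median the counts were 6 and 3. SLC38A1, a sodium-coupled importer of glutamine and other neutral amino acids, read 8.31, 8.16, 7.97 and 7.96 in the Oct4low arrays, 8.34 and 8.94 in Oct4med and 9.09, 8.73, 8.40 and 8.73 in Oct4hi. Each Oct4hi array lay above every Oct4low array, and the Oct4med arrays fell on both sides of the lowest Oct4hi array. The difference of 0.64 ± 0.15 (SE) between Oct4hi and Oct4low BCCs was the largest rise of any SLC gene by the brightest probe sets (1.55-fold, adjusted p = 0.00746). SLC7A1, the importer of arginine and lysine, read 8.61, 8.55, 8.29 and 8.59 in Oct4low, 8.68 and 9.09 in Oct4med and 9.17, 8.97, 9.03 and 9.10 in Oct4hi. All Oct4hi values were again above all Oct4low values, by 0.56 ± 0.10 on average (adjusted p = 0.00163). Its difference of 0.38 between Oct4med and Oct4low BCCs had an adjusted p of 0.0537.

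SLC7A11, the light chain of the cystine and glutamate exchanger that feeds glutathione synthesis, was at 7.13, 6.97, 6.95 and 7.08 in Oct4low, 7.23 and 7.31 in Oct4med and 7.27, 7.37, 7.31 and 7.29 in Oct4hi. The Oct4hi arrays stood above the Oct4low arrays without overlap, with a difference of 0.28 ± 0.07 (adjusted p = 0.0086). Its heavy chain SLC3A2, which carries the SLC7 exchangers to the cell surface, differed by 0.15 in the same comparison (adjusted p = 0.116). Between Oct4hi and Oct4med BCCs SLC3A2 was higher by 0.34 (adjusted p = 0.0123), a call that ended without Oct4med replicate 1 (adjusted p = 0.105). SLC1A5, an exchanger of glutamine and other neutral amino acids, differed by 0.18 between Oct4hi and Oct4low BCCs (adjusted p = 0.0858), with all Oct4hi arrays above all Oct4low arrays. SLC36A4 and SLC66A1, a lysosomal exporter of cationic amino acids, were also higher in Oct4hi than in Oct4low BCCs, by 0.32 and 0.29 (adjusted p = 0.0089 and 0.0156), and the latter call ended without Oct4hi replicate 2 (adjusted p = 0.0538).

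On the other side, SLC38A9, the lysosomal arginine sensor of the mTORC1 pathway, read 5.19, 5.49, 5.10 and 5.18 in Oct4low, 5.15 and 4.80 in Oct4med and 4.94, 4.71, 4.51 and 4.86 in Oct4hi. The Oct4hi arrays lay below the Oct4low arrays without overlap, by 0.49 ± 0.12 (a difference of -0.49, adjusted p = 0.00748), although 5 of the 10 values were below their array's median. None of the 4 Oct4hi arrays reached the median, so the filter was passed through the Oct4low arrays, where the gene was high, and Oct4med replicate 1. SLC43A2, a carrier of large neutral amino acids, was lower by 0.29 in Oct4hi BCCs (a difference of -0.29, adjusted p = 0.0129). SLC38A10 differed by -0.24 (adjusted p = 0.0163), and without Oct4hi replicate 1 it was no longer called (adjusted p = 0.0579). Another tested SLC38A10 probe set went the opposite way, by 0.26 (adjusted p = 0.0979), and the mean of the sets was not called. SLC6A16, an orphan member of the neurotransmitter carrier family, differed by -0.36 (adjusted p = 0.04), and that call ended when any of 5 arrays (Oct4low 1 and 2, Oct4hi 1, 2 and 3) was left out, at adjusted p values up to 0.0923. SLC6A6, the taurine carrier, was lower by 0.39 in Oct4med than in Oct4low BCCs (a difference of -0.39, adjusted p = 0.0452), and the call ended in 8 of the 10 fits that left out an array (adjusted p up to 0.204). SLC7A4, an orphan member of the cationic amino acid family, was higher in Oct4med BCCs than in both other subsets, by 0.29 over Oct4low (adjusted p = 0.0377) and 0.31 over Oct4hi (a difference of -0.31, adjusted p = 0.0227), and these calls were lost in 7 and in 2 of the fits that left out an array (adjusted p up to 0.163 and 0.102). SLC36A4, given above, was also higher in Oct4hi than in Oct4med BCCs by 0.32 (adjusted p = 0.031), and SLC7A9, the cystine carrier of kidney and gut, lower (a difference of -0.43, adjusted p = 0.039), with calls lost in 4 and 6 such fits (adjusted p up to 0.343 and 0.155).

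Sugar carriers numbered 21, with 14 tested, and in Oct4hi relative to Oct4low BCCs 1 was higher (7.14%) and 3 lower (21.4%), against 20.4% and 14.7% of all genes. SLC2A3, the high-affinity glucose transporter GLUT3, was the 1 that rose. Its values were 8.93, 9.11, 9.25 and 9.02 in Oct4low, 8.56 and 8.72 in Oct4med and 9.37, 9.47, 9.40 and 9.36 in Oct4hi. The 3 subsets did not overlap at any point, with Oct4med lowest and Oct4hi highest. Oct4hi exceeded Oct4low BCCs by 0.32 ± 0.08 (adjusted p = 0.0102) and Oct4med BCCs by 0.75 ± 0.10 (1.69-fold, adjusted p = 0.000279). Oct4med was lower than Oct4low BCCs by 0.44 (a difference of -0.44, adjusted p = 0.00993), a call that ended without Oct4med replicate 1 (adjusted p = 0.0964). The second SLC2A3 probe set was higher in Oct4hi BCCs by 0.32 and 0.45 in the same comparisons (adjusted p = 0.0136 and 0.00988) and differed by -0.13 between Oct4med and Oct4low BCCs (adjusted p = 0.41). Both probe sets carry the suffix of sets that can match several transcripts, and whether they also match the near-identical paralog SLC2A14 was not tested.

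SLC2A12, the glucose transporter GLUT12, went the other way at 7.89, 7.82, 7.98 and 7.85 in Oct4low, 7.87 and 7.78 in Oct4med and 7.47, 7.41, 7.56 and 7.50 in Oct4hi. Oct4hi arrays were below all others, by 0.40 against Oct4low (a difference of -0.40, adjusted p = 0.00119). Its second probe set differed by -0.13 (adjusted p = 0.346), and the call was lost when sets with multiple-match suffixes were left out (adjusted p = 0.355). The difference of -0.34 from Oct4med BCCs (adjusted p = 0.0124) was not called without Oct4med replicate 1 (adjusted p = 0.107). SLC60A2, described as a sodium-dependent glucose transporter, differed by -0.39 between Oct4hi and Oct4low BCCs (adjusted p = 0.0195), with no overlap and with an adjusted p of 0.0614 without Oct4low replicate 4. SLC37A2, a sugar-phosphate exchanger of the endoplasmic reticulum, differed by -0.29 (adjusted p = 0.0169), and its call ended without Oct4hi replicate 1 or 2 (adjusted p up to 0.0575). In Oct4med BCCs SLC37A2 differed by -0.35 from Oct4low (adjusted p = 0.0305), a call lost in 4 of the fits that left out an array (adjusted p up to 0.187). SLC5A3, the sodium-coupled myo-inositol carrier, was higher by 0.39 in Oct4hi than in Oct4med BCCs (adjusted p = 0.0186, and 0.207 without Oct4med replicate 1).

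Carriers of zinc and other metals numbered 19, with 14 tested. In Oct4hi relative to Oct4low BCCs, 4 were higher (28.6%, against 20.4% of all genes) and 1 lower (7.14%, against 14.7%), with a class median of 0.10, and the counts were 4 and 1 under both other scalings as well. SLC30A7, which loads zinc into the Golgi, read 6.91, 6.88, 6.68 and 6.54 in Oct4low, 6.98 and 7.24 in Oct4med and 7.43, 7.24, 7.06 and 7.28 in Oct4hi. Every Oct4hi array was above every Oct4low array, by 0.50 ± 0.11 on average (adjusted p = 0.00386). SLC31A1, the copper importer CTR1, read 9.56, 9.47, 9.54 and 9.48 in Oct4low, 9.61 and 9.72 in Oct4med and 9.83, 9.90, 9.83 and 10.02 in Oct4hi. The Oct4med arrays lay between both other subsets without overlap, and the Oct4hi mean was 0.38 ± 0.07 above the Oct4low mean (adjusted p = 0.00164).

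SLC39A6, a zinc importer known as an estrogen-regulated gene in breast cancer, read 8.26, 8.08, 8.06 and 8.0 in Oct4low, 8.45 and 8.70 in Oct4med and 8.63, 8.35, 8.23 and 8.36 in Oct4hi. Oct4med stood above Oct4low BCCs by 0.48 (adjusted p = 0.0161, and 0.121 without Oct4med replicate 2). Oct4hi overlapped Oct4low in 1 array and was higher by 0.29 (adjusted p = 0.0351), a call that ended when any of 6 arrays (Oct4low 2, 3 and 4, Oct4hi 1, 2 and 4) was left out (adjusted p up to 0.108). Both other probe sets of SLC39A6 were also higher in Oct4hi than in Oct4low BCCs, by 0.34 and 0.65 (adjusted p = 0.0149 and 0.0226). SLC39A9 was higher by 0.26 (adjusted p = 0.0225), and that call ended without Oct4hi replicate 1 or 2 (adjusted p up to 0.0739). SLC30A9, a zinc transporter of mitochondria, was the 1 metal carrier that was lower in Oct4hi than in Oct4low BCCs (a difference of -0.31, adjusted p = 0.0102), and its second probe set differed by -0.68 (adjusted p = 0.00145). SLC11A1, a metal exporter of phagosomes, was lower in Oct4hi than in Oct4med BCCs (a difference of -0.30, adjusted p = 0.0415), and the call was lost in 7 of the fits that left out an array (adjusted p up to 0.335). Another tested SLC11A1 probe set differed by -0.03 (adjusted p = 0.848). SLC39A14, an importer of zinc and iron, was not tested, with means of 3.27, 3.36 and 3.21 for Oct4low, Oct4med and Oct4hi.

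SLC30A1, the transporter that exports zinc across the plasma membrane, read 9.10, 9.15, 9.11 and 9.02 in Oct4low, 8.78 and 8.85 in Oct4med and 9.20, 9.29, 9.20 and 9.30 in Oct4hi. The subsets did not overlap and took the order seen for SLC2A3, with Oct4med lowest. Oct4hi exceeded Oct4med BCCs by 0.43 ± 0.08 (adjusted p = 0.00278). Its other probe set gave a larger difference of 0.96 in that comparison (adjusted p = 7.72e-06) and -1.09 between Oct4med and Oct4low BCCs (adjusted p = 3.9e-06). For the brighter probe set the latter difference was -0.28 (adjusted p = 0.0309), and that call ended when any of 4 arrays (Oct4low 2 and 3, Oct4med 1 and 2) was left out (adjusted p up to 0.154). Of 9 genes listed for the zinc response, 2 were measured. MT1G, a metallothionein, was below the array medians and not tested. MTF2 was higher in Oct4hi than in Oct4low BCCs by 0.45 (adjusted p = 0.000525). It is a Polycomb-associated protein, so the list gave no result on the zinc response.

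Carriers of organic ions numbered 40, with 19 tested, and in Oct4hi relative to Oct4low BCCs 2 were higher and 2 lower (10.5% each, against 20.4% and 14.7% of all genes). With the values quantile normalized again 1 was higher and none lower, and with a common median 2 were higher and none lower. SLC22A15, a member of the organic cation and zwitterion carriers, read 7.95, 8.02, 8.02 and 7.92 in Oct4low, 7.74 and 7.76 in Oct4med and 8.32, 8.48, 8.37 and 8.55 in Oct4hi. No array of a subset overlapped another subset. Oct4hi was higher than Oct4low BCCs by 0.45 ± 0.07 (adjusted p = 0.000721) and than Oct4med BCCs by 0.68 ± 0.09 (1.60-fold, adjusted p = 0.000257). SLC22A5, the carnitine importer OCTN2, read 8.24, 8.41, 8.33 and 8.29 in Oct4low, 7.92 and 8.04 in Oct4med and 8.49, 8.61, 8.39 and 8.65 in Oct4hi. The Oct4med arrays were lowest, and Oct4hi exceeded them by 0.56 ± 0.10 (adjusted p = 0.00166). The second SLC22A5 probe set differed by -0.10 in that comparison (adjusted p = 0.558), and the mean of both sets was not called (adjusted p = 0.068). The differences of SLC22A5 against Oct4low BCCs, 0.22 for Oct4hi and -0.34 for Oct4med (adjusted p = 0.0485 and 0.028), were lost in 7 and 4 of the fits that left out an array, at adjusted p values up to 0.125 and 0.174.

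SLC16A7, the pyruvate and lactate carrier MCT2, was lower in Oct4hi than in Oct4med BCCs at 7.24 and 7.55 in Oct4med and 6.89, 7.07, 6.90 and 6.71 in Oct4hi. The difference was -0.50 ± 0.11 (adjusted p = 0.00734, and 0.0658 without Oct4med replicate 2), and 3 further probe sets of the gene gave -0.66, -0.59 and -0.50 (adjusted p = 0.00334, 0.00399 and 0.00947). Against Oct4low BCCs the brightest set was not called in either subset. Among the further sets, called differences from Oct4low were -0.52 in Oct4hi (adjusted p = 0.00172) and 0.50 and 0.41 in Oct4med BCCs (adjusted p = 0.0175 and 0.0272). Their other differences from Oct4low were not called. SLC22A14 and SLC22A7, an organic anion carrier, were also lower in Oct4hi than in Oct4med BCCs, by -0.43 and -0.33 (adjusted p = 0.0137 and 0.0326). Without Oct4med replicate 1 neither was called (adjusted p = 0.194 and 0.259), and SLC22A7 was also not called without Oct4hi replicate 1 or 3. SLC22A7 was higher in Oct4med than in Oct4low BCCs by 0.38 (adjusted p = 0.0212, and 0.164 without Oct4med replicate 1). SLC22A8, another organic anion carrier, differed by -0.33 between Oct4hi and Oct4low BCCs (adjusted p = 0.0434), which was lost in 7 of the fits that left out an array (adjusted p up to 0.108). For SLC44A1, the choline carrier, the 3 differences were -0.03, 0.19 and -0.22 and none was called (adjusted p = 0.804, 0.241 and 0.145), whereas another tested probe set was lower in Oct4hi than in Oct4low and Oct4med BCCs (differences of -0.36 and -0.53, adjusted p = 0.0224 and 0.0135). SLC47A1, the proton-coupled exporter MATE1, differed by -0.27 and -0.34 in the same comparisons (adjusted p = 0.0424 and 0.0453), and these calls were lost in 6 and 7 of the fits that left out an array (adjusted p up to 0.111 and 0.396).

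Mitochondrial carriers of the SLC25 family numbered 27, with 19 tested, of which 2 were higher (10.5%) and 4 lower (21.1%) in Oct4hi than in Oct4low BCCs, against 20.4% and 14.7% of all genes. SLC25A25, a calcium-regulated carrier that exchanges ATP-magnesium for phosphate, read 8.93, 9.11, 9.11 and 9.10 in Oct4low, 8.42 and 8.46 in Oct4med and 9.15, 9.11, 9.18 and 9.28 in Oct4hi. Both Oct4med arrays lay well under all other arrays, while Oct4low and Oct4hi overlapped. The difference was -0.62 ± 0.09 against Oct4low (1.54-fold lower, adjusted p = 0.000457), and Oct4hi was 0.74 ± 0.09 above Oct4med BCCs (1.67-fold, adjusted p = 0.000138). SLC25A15, the ornithine carrier of the urea cycle, read 6.15, 6.20, 6.25 and 6.29 in Oct4low, 6.43 and 6.57 in Oct4med and 6.53, 6.54, 6.63 and 6.54 in Oct4hi. It was higher in Oct4hi than in Oct4low BCCs without overlap, by 0.34 ± 0.07 (adjusted p = 0.00263). The corresponding 0.28 in Oct4med BCCs (adjusted p = 0.0359) was lost in 6 of the fits that left out an array (adjusted p up to 0.179).

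SLC25A37, mitoferrin-1, which brings iron into mitochondria, read 9.14, 9.30, 9.31 and 9.24 in Oct4low, 9.16 and 9.09 in Oct4med and 8.77, 8.85, 8.82 and 8.93 in Oct4hi. The Oct4hi arrays were lowest without overlap, with a difference of -0.40 ± 0.07 from Oct4low BCCs (adjusted p = 0.00121). Of its 3 other probe sets, all with lower Oct4hi means, 1 passed the test (a difference of -0.33, adjusted p = 0.00216). SLC25A35 was also lower in Oct4hi than in Oct4low BCCs (a difference of -0.31, adjusted p = 0.0109). Against Oct4med BCCs, SLC25A37 and SLC25A35 differed by -0.28 and -0.33 (adjusted p = 0.0334 and 0.0284), and these calls were lost in 5 and 4 of the fits that left out an array (adjusted p up to 0.2 and 0.136). SLC25A11, the oxoglutarate and malate carrier, was higher by 0.23 and SLC25A12, the aspartate and glutamate carrier, lower by 0.23 (a difference of -0.23) in Oct4hi than in Oct4low BCCs (adjusted p = 0.0388 and 0.0332), each lost in 6 such fits (adjusted p up to 0.121 and 0.105). SLC25A27, an uncoupling protein, differed by -0.45 (adjusted p = 0.0347), and the call was lost in 5 of the fits that left out an array (adjusted p up to 0.102). It was below the array median in 8 of 10 arrays and entered the test only through Oct4low replicates 2 and 3, in the subset where it was high, so this call carries no weight of its own. SLC25A33, a carrier of pyrimidine nucleotides, was higher in Oct4hi than in Oct4med BCCs by 0.29 (adjusted p = 0.0344), which was lost without Oct4med replicate 1 or 2 or Oct4hi replicate 2 (adjusted p up to 0.182). SLC25A30 was higher there by 0.37 (adjusted p = 0.0399), lost without Oct4med replicate 1 or Oct4hi replicate 1 or 2 (adjusted p up to 0.392). SLC25A36, which like SLC25A33 carries pyrimidine nucleotides, had means of 10.60, 10.81 and 10.59 across Oct4low, Oct4med and Oct4hi and was not called, while another of its probe sets was lower in Oct4hi than in Oct4low and Oct4med BCCs (differences of -0.31 and -0.52, adjusted p = 0.00621 and 0.00173). SLC25A48 differed by -0.50 between Oct4hi and Oct4med BCCs (adjusted p = 0.0459), with the call lost in 7 of the fits that left out an array (adjusted p up to 0.189). It too was below the array median in 8 arrays and entered the test only through both Oct4med arrays, where it was high. This call likewise carries no weight of its own.

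Carriers of inorganic ions numbered 37, with 19 tested. In Oct4hi relative to Oct4low BCCs 1 was higher (5.26%) and 5 were lower (26.3%), against the background of 20.4% and 14.7% of all genes, and a common median gave 1 and 4. SLC26A6, an exchanger of chloride for bicarbonate and oxalate, read 6.04, 6.11, 6.12 and 6.13 in Oct4low, 4.99 and 4.79 in Oct4med and 5.53, 5.52, 5.57 and 6.04 in Oct4hi. The Oct4med arrays were lowest, below the medians of their arrays (5.14 and 5.08), so that the gene entered the test through both other subsets, and Oct4hi replicate 4 reached the lowest Oct4low value. The differences were -1.21 ± 0.14 for Oct4med against Oct4low (2.31-fold lower, adjusted p = 8.86e-05), -0.43 ± 0.11 for Oct4hi against Oct4low (adjusted p = 0.0103) and 0.78 ± 0.14 for Oct4hi against Oct4med BCCs (1.72-fold, adjusted p = 0.00172). SLC26A2, the sulfate carrier needed for sulfated matrix, moved upward at 8.60, 8.51, 8.16 and 8.45 in Oct4low, 8.49 and 9.06 in Oct4med and 9.23, 9.03, 8.86 and 9.11 in Oct4hi. Oct4hi stood above Oct4low BCCs without overlap, by 0.62 ± 0.13 (1.54-fold, adjusted p = 0.00365), and the Oct4med arrays spanned both subsets.

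SLC20A1, the sodium-phosphate carrier PiT-1, read 11.37, 11.45, 11.43 and 11.37 in Oct4low, 11.31 and 11.26 in Oct4med and 11.01, 10.99, 11.01 and 11.00 in Oct4hi. The 3 subsets did not overlap and the 4 Oct4hi arrays were nearly equal, 0.40 ± 0.06 below Oct4low BCCs (a difference of -0.40, adjusted p = 0.000509). A second SLC20A1 probe set was lower as well in Oct4hi than in Oct4low BCCs (a difference of -0.71, adjusted p = 0.0108). The probe sets disagreed over Oct4hi against Oct4med BCCs, with -0.29 for the brighter (adjusted p = 0.0165, and 0.112 without Oct4med replicate 1) and 0.71 for the dimmer (adjusted p = 0.0364). The dimmer set differed by -1.43 between Oct4med and Oct4low BCCs (adjusted p = 0.00102), where the brighter gave -0.12 (adjusted p = 0.296). SLC4A11, a proton-conducting member of the bicarbonate carrier family, read 7.28, 7.23, 7.35 and 7.2 in Oct4low, 6.92 and 7.15 in Oct4med and 6.86, 6.67, 6.57 and 6.82 in Oct4hi. By the brightest probe sets, this was the largest fall of any SLC gene between Oct4low and Oct4hi BCCs, with no overlap (a difference of -0.53 ± 0.09, adjusted p = 0.000692).

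SLC26A11, a sulfate and anion carrier, was also lower in Oct4hi than in Oct4low BCCs (a difference of -0.31, adjusted p = 0.00849) and than in Oct4med BCCs (a difference of -0.34, adjusted p = 0.0207, and up to 0.219 without Oct4med replicate 1 or Oct4hi replicate 2). SLC4A7, a sodium-bicarbonate carrier, was lower than in Oct4low BCCs in both other subsets, by -0.27 in Oct4hi and -0.37 in Oct4med (adjusted p = 0.0414 and 0.0413), but each call was lost in 7 of the fits that left out an array (adjusted p up to 0.126 and 0.287). SLC26A1, a sulfate and oxalate carrier, was higher in Oct4med BCCs alone at 6.22 and 6.20, against 5.72 to 5.94 in Oct4low and 5.78 to 5.92 in Oct4hi. Another tested SLC26A1 probe set differed by 0.10 between Oct4med and Oct4low and by -0.17 between Oct4hi and Oct4med BCCs. Neither difference was called (adjusted p = 0.72 and 0.474), nor was the mean of the sets. The differences of the brightest set were 0.35 from Oct4low (adjusted p = 0.0175) and -0.36 for Oct4hi against Oct4med (adjusted p = 0.0129). Without Oct4med replicate 1 neither was called (adjusted p = 0.0881 at most for the first and 0.0853 for the second), and the first was not called without Oct4med replicate 2 either. SLC9A9, a sodium-proton exchanger of endosomes, differed by -0.25 between Oct4hi and Oct4med BCCs (adjusted p = 0.0454), a call lost in 8 of the fits that left out an array (adjusted p up to 0.383). SLC12A2, the sodium-potassium-chloride cotransporter NKCC1, differed by 0.23 between Oct4hi and Oct4low BCCs (adjusted p = 0.11).

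**Figure D4:**
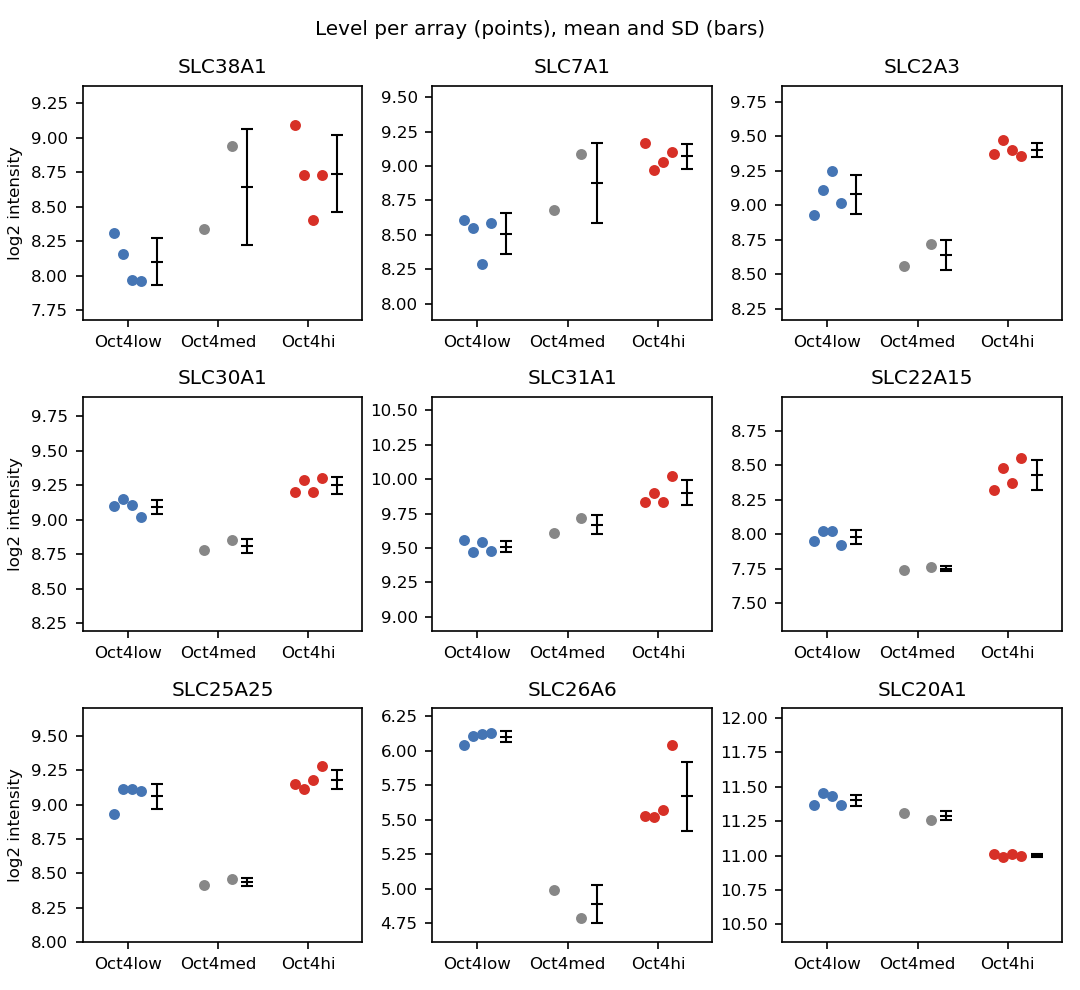
Each panel shows 1 SLC gene, with a point for each array (log2 intensity, vertical axis, 1.7 units in each panel but at different heights) by subset (horizontal axis) and a bar for the mean and SD of 4, 2 and 4 arrays. SLC2A3, SLC30A1, SLC22A15, SLC25A25 and SLC26A6 are lowest in the Oct4med arrays, whereas SLC38A1, SLC7A1 and SLC31A1 are lowest in the Oct4low arrays and SLC20A1 in the Oct4hi arrays.

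Upstream sequences are shown for SLC26A6 and SLC25A25, whose Oct4med differences held under every left-out array, for SLC30A1 as the metal carrier with the same order of subsets, and for SLC31A1 as a metal carrier that rose in Oct4hi BCCs. They are the 250 bases before the gene start in RefSeq (GRCh38.p14), read 5′ to 3′ on the gene's strand. Capitals mark TGACGTCA, the cyclic AMP response element, TGATGNAA, the core bound by ATF4 with C/EBP factors, or TGCACNC, a core of the metal response element, each searched on both strands.
SLC26A6 (chr3:48635462-48635711, minus strand): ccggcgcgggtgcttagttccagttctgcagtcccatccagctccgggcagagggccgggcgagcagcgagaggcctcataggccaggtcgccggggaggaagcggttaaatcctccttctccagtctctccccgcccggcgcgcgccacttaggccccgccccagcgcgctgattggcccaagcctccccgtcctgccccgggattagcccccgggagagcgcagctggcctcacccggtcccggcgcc
SLC25A25 (chr9:128098257-128098506, plus strand): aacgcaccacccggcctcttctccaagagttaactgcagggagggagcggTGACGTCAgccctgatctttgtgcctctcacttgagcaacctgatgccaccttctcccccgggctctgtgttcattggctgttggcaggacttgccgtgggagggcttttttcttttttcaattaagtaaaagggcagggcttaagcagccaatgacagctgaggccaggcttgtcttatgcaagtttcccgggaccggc
SLC30A1 (chr1:211579162-211579411, minus strand): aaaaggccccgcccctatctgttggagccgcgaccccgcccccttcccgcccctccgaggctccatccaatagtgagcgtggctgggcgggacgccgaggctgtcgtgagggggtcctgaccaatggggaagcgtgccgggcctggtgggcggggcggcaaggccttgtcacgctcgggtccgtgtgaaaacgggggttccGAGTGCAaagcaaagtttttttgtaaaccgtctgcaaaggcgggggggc
SLC31A1 (chr9:113221294-113221543, plus strand): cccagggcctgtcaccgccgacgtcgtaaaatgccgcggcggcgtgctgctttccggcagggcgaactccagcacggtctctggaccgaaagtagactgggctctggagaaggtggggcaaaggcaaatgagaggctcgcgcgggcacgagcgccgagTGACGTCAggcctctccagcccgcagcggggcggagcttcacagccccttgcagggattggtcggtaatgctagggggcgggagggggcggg
TGACGTCA occurred in the upstream stretch of SLC25A25 and of SLC31A1, and TGCACNC in that of SLC30A1, while that of SLC26A6 held none of these letters. Over 27305 promoters, 1.77% held TGACGTCA, 3.19% TGATGNAA and 9.73% TGCACNC. Of the 121 tested SLC genes with an upstream stretch in the table, 4 (3.31%), 5 (4.13%) and 13 (10.7%) held them. The motifs were chosen after the levels had been seen, and a match is a description of the letters only. SLC2A3 and SLC22A7 are among the genes for which no sequence is shown.

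Carriers of nucleosides, nucleotide sugars, vitamins and lipids numbered 32, with 24 tested. In Oct4hi relative to Oct4low BCCs 5 were higher (20.8%) and 1 lower (4.17%), against 20.4% and 14.7% of all genes, and the counts were 5 and 1 after quantile normalization and 5 and 0 with a common median. SLC35F2, a carrier of the nucleotide-sugar family, read 9.37, 9.39, 9.50 and 9.47 in Oct4low, 9.38 and 9.42 in Oct4med and 9.75, 9.76, 9.75 and 9.69 in Oct4hi. The Oct4hi arrays were above all others, by 0.31 ± 0.06 against Oct4low BCCs (adjusted p = 0.00356) and by 0.34 against Oct4med BCCs (adjusted p = 0.00867, and 0.0703 without Oct4med replicate 1). SLC33A2 was higher in Oct4hi than in Oct4low BCCs by 0.28 ± 0.08 without overlap (adjusted p = 0.0127) and than in Oct4med BCCs by 0.41 (adjusted p = 0.0076, and 0.0665 without Oct4med replicate 1). SLC35A2, which supplies the Golgi with UDP-galactose, was higher by 0.24 than in Oct4low (adjusted p = 0.0174, and 0.0582 without Oct4hi replicate 2) and by 0.48 than in Oct4med BCCs (adjusted p = 0.00174).

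SLC29A1, the nucleoside carrier ENT1, differed by 0.24 between Oct4hi and Oct4low BCCs (adjusted p = 0.0432), with the call lost in 7 of the fits that left out an array (adjusted p up to 0.121). SLC19A2, a thiamine carrier, differed by 0.25 (adjusted p = 0.0474) and lost its call in 7 such fits as well (adjusted p up to 0.118). The 1 lower member, SLC29A4, a carrier of monoamines and adenosine, differed by -0.22 (adjusted p = 0.0332) and lost its call in 6 (adjusted p up to 0.106). SLC43A3, a purine nucleobase carrier, was higher in Oct4med than in Oct4low BCCs by 0.36 (adjusted p = 0.0171, and 0.0917 without Oct4med replicate 2). SLC35E1, a nucleotide-sugar family member, was lower there (a difference of -0.40, adjusted p = 0.0258, and up to 0.217 without Oct4low replicate 2 or Oct4med replicate 1), but another of its probe sets was higher by 0.37 (adjusted p = 0.0414). SLC52A3, a riboflavin carrier, was higher by 0.31 (adjusted p = 0.0339), lost in 5 of the fits that left out an array (adjusted p up to 0.173). As it was above the array median only in both Oct4med arrays, it entered the test through the subset where it was high. Its call therefore carries no weight of its own. SLC23A2, the vitamin C carrier, was higher in Oct4hi than in Oct4med BCCs by 0.35 (adjusted p = 0.0203, and 0.159 without Oct4med replicate 1). SLC19A1, the reduced folate carrier, was lower in Oct4hi than in Oct4med BCCs (a difference of -0.41, adjusted p = 0.0266). That call ended when any of 4 arrays (Oct4med 1, Oct4hi 1, 2 and 4) was left out. Another tested SLC19A1 probe set differed by -0.05 there (adjusted p = 0.763), and the mean of the sets was not called.

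The 3 genes of the recently named families SLC67 and SLC68 were placed in a class named other. SLC67A1, earlier named SLC22A18, read 8.46, 8.39, 8.51 and 8.58 in Oct4low, 8.36 and 8.37 in Oct4med and 8.04, 8.08, 8.18 and 8.15 in Oct4hi. It was lower in Oct4hi than in Oct4low BCCs without overlap (a difference of -0.37 ± 0.07, adjusted p = 0.00195). The difference of -0.25 from Oct4med BCCs (adjusted p = 0.0493) was lost in 9 of the fits that left out an array (adjusted p up to 0.183). SLC68A1 differed by -0.31 from Oct4low (adjusted p = 0.0304) and by -0.46 from Oct4med BCCs (adjusted p = 0.0183), and SLC67A2 by -0.48 from Oct4med BCCs (adjusted p = 0.00476). Those calls ended when any of 5 arrays, either Oct4med array, or Oct4med replicate 1 was left out, in that order (adjusted p up to 0.0813, 0.12 and 0.057). SLC67A2 was also higher in Oct4med than in Oct4low BCCs by 0.32 (adjusted p = 0.0412), lost in 7 such fits (adjusted p up to 0.207). The other SLC67A2 probe set differed by -0.14 in that comparison and by -0.05 between Oct4hi and Oct4med BCCs, and neither was called (adjusted p = 0.47 and 0.794).

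A further 23 symbols with an SLC stem are not transporters but antisense, divergent or pseudogene transcripts or a regulator, and 10 of them were tested. In Oct4hi relative to Oct4low BCCs 2 were higher and 1 lower, against 20.4% and 14.7% of all genes, and after quantile normalization 1 and 1. The divergent transcript SLC12A2-DT read 5.60, 5.30, 5.04 and 5.42 in Oct4low, 5.54 and 5.85 in Oct4med and 5.96, 5.98, 5.70 and 5.91 in Oct4hi. Oct4hi exceeded Oct4low BCCs by 0.55 ± 0.12 (adjusted p = 0.00412) without overlap. SLC16A1-AS1 was higher in Oct4hi than in Oct4low BCCs by 0.24 (adjusted p = 0.0118) and than in Oct4med BCCs by 0.31 (adjusted p = 0.0129, and 0.0992 without Oct4med replicate 1). Quantile normalization took away the first of these calls (adjusted p = 0.101). SLC9A3-AS1 was lower in Oct4hi than in Oct4low BCCs (a difference of -0.36, adjusted p = 0.00406) and than in Oct4med BCCs (a difference of -0.35, adjusted p = 0.0174, and up to 0.0917 without either Oct4med array). SLC2A4RG, a transcription regulator of the glucose transporter SLC2A4, was higher in Oct4hi than in Oct4med BCCs by 0.36 (adjusted p = 0.00895, and 0.0852 without Oct4med replicate 1). Its difference of -0.27 between Oct4med and Oct4low BCCs (adjusted p = 0.041) was lost in 7 of the fits that left out an array (adjusted p up to 0.204). SLC38A4-AS1 differed by -0.31 between Oct4hi and Oct4med BCCs (adjusted p = 0.0454), also lost in 7 such fits (adjusted p up to 0.225).

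Several probe sets were tested for some of the called genes. In the comparison of Oct4hi with Oct4low BCCs, 12 of the 45 called genes had 15 further tested probe sets, of which 7 were called in the same direction, 6 had the same direction without a call and 2 the opposite one without a call. Of 11 such probe sets for Oct4med against Oct4low BCCs, 2 were called in the same direction and 1, of SLC35E1, in the opposite one. Of 19 for Oct4hi against Oct4med BCCs, 8 were called in the same direction and 1, of SLC20A1, in the opposite one.

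Genes that work beside the carriers came from lists chosen with earlier results known. For Oct4hi against Oct4low BCCs their counts stand beside 20.4% higher and 14.7% lower among all genes. Of 27 tested carriers that belong to numbered SLC families under other symbols, 6 were higher and 3 lower in Oct4hi than in Oct4low BCCs (5 and 4 after quantile normalization), with a median of 0.01 against 0.02 over all genes. SLCO4A1, an organic anion carrier, was lower by 1.07 (a difference of -1.07), and MPC1, a subunit of the mitochondrial pyruvate carrier, and UCP2, a mitochondrial uncoupling protein, were higher by 0.39 and 0.43. Of 6 partner proteins and regulators of SLC carriers, 4 were higher and 1 lower, with STOM at 0.61 and ARL6IP5 at -0.37, but after quantile normalization 1 was higher. Of 10 tested ABC transporters, 1 was lower (ABCC3, a difference of -0.93) and none higher, and of 12 cation pumps 1 was higher (ATP1B1, by 0.42) and none lower.

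Genes of glycolysis, the pathway that uses the glucose these carriers import, were lower in Oct4hi than in Oct4low BCCs in 7 of 10 tested and higher in none (14.7% and 20.4% of all genes), with a median of -0.38. PFKFB3, an activator of glycolytic flux, differed by -0.60, PFKFB4 by -0.46 and PDK1 by -0.44. ATF4 is the factor that raises amino acid synthesis and uptake when amino acids are short. Of its 12 tested targets, 8 were higher and 2 lower in Oct4hi than in Oct4low BCCs (20.4% and 14.7% of all genes). Their median was 0.26, and after quantile normalization 6 were higher and 2 lower. The calls of NUPR1 and MTHFD2 were each lost in 5 of the fits that left out an array. CTH, an enzyme of cysteine synthesis, was higher by 0.39 and PSAT1, of serine synthesis, by 0.38, while ATF3 and DDIT3 both differed by -0.38. In Oct4med against Oct4low BCCs, none of the ATF4 targets was higher and 3 were lower (5.68% and 11.7% of all genes). DDIT3 differed by -1.61, ATF3 by -1.28 and CEBPB by -0.30. ATF3 was also on the list of early response genes that follows. Of 14 tested early response genes, which rise within minutes of a stimulus or of handling, 10 fell in Oct4med relative to Oct4low BCCs and none rose (11.7% and 5.68% of all genes), with a median of -0.60 against 0.03 over all genes. Of the 152 tested SLC genes, 8 were higher and 10 lower there (5.26% and 6.58%). SLC26A6, SLC25A25, SLC2A3 and SLC30A1 were among the lower ones, and the calls of SLC2A3 and SLC30A1 both ended without Oct4med replicate 1. In Oct4hi relative to Oct4low BCCs, 8 of the 14 early response genes fell and none rose (14.7% and 20.4% of all genes), with a median of -0.25. In that comparison SLC26A6 was lower (a difference of -0.43) but SLC2A3 higher by 0.32, and SLC30A1 and SLC25A25, at 0.15 and 0.12, were not called. The part of the list in the SLC differences was not tested.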

How the data were processed

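Total RNA (100 ng) of 10 sorted samples was hybridized to Affymetrix U133 Plus 2.0 arrays. The authors background-corrected the intensities, deposited log2 values normalized by robust multi-array averaging (RMA) and left out probe sets near background or with little change, so that 25750 remained. Replicates were not pooled, and the labels call them biological replicates. The study's methods describe RNA from 4 experiments on 1 transfected line, so the p-values cover the spread between experiments on that line, and the number of arrays (2 for Oct4med) limits the precision.

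SLC symbols were taken from the platform annotation, and 11 probe sets with an SLC gene among several symbols were left out. After removal of 23 control probe sets, the 13883 probe sets that reached the median of the array on 2 or more arrays entered a 3-group limma fit (R 4.3.3, limma 3.58.1) and Benjamini-Hochberg adjustment over all of them, and genes were counted by their brightest probe set. The fit was tested on simulated data.

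The members, classes and gene lists were chosen with earlier results of these data known, and SLC2A4RG, SLC5A5, SLC5A7, SLC5A8, SLC5A12 and SLC66A1LP were moved to another class after their values were seen. Genes were named for the largest changes without overlap in each comparison, as the brightest or most changed members of a class, or as well-known transporters. The remaining called genes were named so that every call is accounted for. Alternatives were other filters, scalings, weights and priors, a plain t-test, a replicate block, other probe set rules and leaving out each array. The plain t-test used each probe set's own variance, whereas the study's methods name a random variance model, which was not run. Upstream sequences came from a RefSeq table (GRCh38.p14). The gate for Oct4low BCCs follows the labels, and another passage of the study's text gives a different one.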

Additional observations from a re-analysis of the deposited data

Results flagged for a closer look

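In 9 of 148 groups of 4 arrays, the Oct4low and Oct4hi arrays of each SLC gene that was called or named by the rule, 1 array stood apart from the other 3 by Dixon's criterion, which chance does in about 1 of 20 groups. SLC26A6 was at 6.04 in Oct4hi replicate 4 against 5.52 to 5.57 in the other Oct4hi arrays. SLC25A25 was at 8.93 in Oct4low replicate 1 against 9.10 to 9.11. SLC25A15 was at 6.63 in Oct4hi replicate 3 against 6.53 to 6.54, and in the same array SLC2A4RG was at 8.70 against 8.84 to 8.85 and SLC5A3 at 9.46 against 9.61 to 9.63. SLC35F2 was at 9.69 in Oct4hi replicate 4 against 9.75 to 9.76. SLC26A11 was at 8.47 in Oct4low replicate 3 against 8.61 to 8.63, and SLC47A1 at 5.62 in Oct4hi replicate 1 against 5.37 to 5.40. SLC39A14, below the array median throughout, was at 2.94 in Oct4hi replicate 1 against 3.29 to 3.32.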

How the results depend on the processing

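Of all 101 calls of SLC genes, 30 stayed past the threshold under every alternative in which they were present, and 71 were lost under at least 1. A call absent from an alternative was not counted as lost there. The stricter filter kept 69 calls and the variation filter 64, and the remaining calls were not compared. Without multiple-match sets 68 stayed and 8 were lost, and the remaining calls were again not compared. Calls were lost most often by the plain t-test (48 lost) and without Oct4med replicate 1. The cause was not tested. By the t-test SLC26A6 was no longer called for Oct4hi against Oct4low (adjusted p = 0.0523) or Oct4med BCCs (adjusted p = 0.0867). The difference of SLC20A1 between Oct4hi and Oct4med BCCs turned to 0.21 (adjusted p = 0.221) with the mean of its probe sets, and that of SLC38A10 between Oct4hi and Oct4low BCCs to 0.012 (adjusted p = 0.92).

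For genes higher in Oct4hi than in Oct4low BCCs, the count of 22 became 14 with the variation filter and 12 without sets of multiple-match suffix, and 15 to 22 with 1 array left out. The count of lower genes, 23, became 15 with the stricter filter and 14 to 23 with 1 array left out. For genes higher in Oct4med than in Oct4low BCCs, the count of 8 became 5 with the stricter filter, 17 after quantile normalization and 3 with array weights. It was 4 with only both subsets in the fit, 0 by the plain t-test, 4 without multiple-match sets and 5 to 9 with 1 array left out. The lower count, 10, became 4 with no filter, 5 after quantile normalization, 4 with array weights, 5 by the t-test, 6 without multiple-match sets and 3 to 10 with 1 array left out. For genes higher in Oct4hi than in Oct4med BCCs, 17 became 9 with the variation filter, 10 after quantile normalization, 11 by the t-test and 7 to 20 with 1 array left out. The lower count, 21, became 13 with no filter, 10 with a common median, 11 with array weights, 5 by the t-test and 2 to 19 with 1 array left out. The 56 genes that differed among the subsets became 33 with the variation filter and 42 to 63 with 1 array left out.

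Same-numbered arrays did not deviate together (correlations of deviations from -0.265 to 0.277 over 8 pairs), so the numbers were not taken as pairs. Some differently numbered arrays had larger correlations, at 0.508 and -0.508 for Oct4med 1 and 2 with Oct4hi 3, and 0.413 for Oct4low 2 with Oct4hi 4. The 2 Oct4med arrays deviate from their mean by equal and opposite amounts, so their correlations with any array are 1 value with opposite signs. Whether such arrays shared an experiment is not given by the labels, and the main fit treated all arrays as independent. With the number as a replicate block, 1 gene rose and 3 fell in Oct4med relative to Oct4low BCCs, and 11 rose and 8 fell in Oct4hi relative to Oct4med BCCs.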
